A study of Homo sapiens with 4 samples.

Results

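The mRNAs described here are those of 10 genes that govern entry into the cell cycle, out of 61806 genes in the deposited table. They are the D-type cyclins *CCND1*, *CCND2* and *CCND3*, the E-type cyclins *CCNE1* and *CCNE2*, the kinases *CDK4*, *CDK6* and *CDK2*, the kinase inhibitor *CDKN1B*, and *MYC*. Members were taken by gene symbol alone, and each symbol matched 1 row. RNA with a poly(A) tail was sequenced from MDA-MB-231, a human breast cancer line, and from MDA-MB-435, which the labels call melanoma cells, both of wild-type genotype. Each line had a control library and a library from cells given CPYPP for 6 h at 10 µM. CPYPP is a small molecule that blocks the contact between DOCK2, an activator of RAC, and RAC1. What the control cells received is not given in the sources used here. The text on culture and treatment speaks of MDA-MB-435 alone in all 4 samples, so the line was taken from the label for each sample.

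Each condition had 1 library, so a difference between 2 libraries had no replicate check and the spread between cultures is unknown. Reads counted on genes came to between 17196385 and 22663954 per library. Of the markers of the lines, *SOX10* had 0 and 1 counts in the MDA-MB-231 libraries against 3031 and 707 in those of MDA-MB-435, and *EGFR* had 12150 and 8161 counts against 70 and 33. Of the markers chosen for MDA-MB-231, *KRT7* and *KRT8* also had more counts there, at 14488 and 12813 against 625 and 522 in controls. *VIM* and *CD44* had more in MDA-MB-435, at 98483 and 36689 in its control against 38484 and 27537. *KRT18* and *SNAI2* were higher in MDA-MB-231 by less, at 8212 and 884 against 5740 and 388 in controls. *LCN2* had at most 5 counts in any library. The pigment genes *PMEL*, *MLANA*, *TYR* and *TYRP1* had at most 34 counts in any library. *DCT*, also a pigment gene, had 1 and 3 counts in the MDA-MB-231 libraries against 658 and 464 in those of MDA-MB-435, and *MITF*, a regulator of melanocytes, had between 690 and 1585 in all 4.

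D-type cyclins are made in response to growth signals and bind CDK4 or CDK6, and these pairs begin to phosphorylate RB, which then releases E2F transcription factors. E2F factors drive the E-type cyclins, which bind CDK2 and complete the step into S phase. CDKN1B encodes p27, an inhibitor of cyclin E–CDK2, and MYC is a transcription factor that promotes growth and cell cycle entry. The mRNAs of *CCND1* and *MYC* are short-lived.

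RefSeq promoter windows on GRCh38.p14 were found for 5 of the members, *CCND3*, *CCNE1*, *CDK4*, *CDK6* and *CDKN1B*, and not for *CCND1*, *CCND2*, *CCNE2*, *CDK2* and *MYC*. The 250 bases before the start were printed for *CCNE1* and *CDKN1B*, which both fell in the fit over both lines, and for *CDK4*, which holds the motif that MYC and its partner MAX bind. The windows lie at chr19:29811741-29811990 on the plus strand for *CCNE1*, chr12:12717118-12717367 on the plus strand for *CDKN1B* and chr12:57752311-57752560 on the minus strand for *CDK4*. The *CDKN1B* and *CDK4* windows lie inside the annotated spans of these genes given below, so their RefSeq starts are not the starts of those spans. Capitals mark matches, on either strand, to the GC box GGGCGG, the CCAAT box CCAAT and the E-box CACGTG.
CCNE1: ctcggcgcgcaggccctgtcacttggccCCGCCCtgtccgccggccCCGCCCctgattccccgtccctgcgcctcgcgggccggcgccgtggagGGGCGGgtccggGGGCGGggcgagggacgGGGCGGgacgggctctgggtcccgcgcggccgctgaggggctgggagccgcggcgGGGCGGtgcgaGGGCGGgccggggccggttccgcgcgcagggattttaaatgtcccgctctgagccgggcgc
CDKN1B: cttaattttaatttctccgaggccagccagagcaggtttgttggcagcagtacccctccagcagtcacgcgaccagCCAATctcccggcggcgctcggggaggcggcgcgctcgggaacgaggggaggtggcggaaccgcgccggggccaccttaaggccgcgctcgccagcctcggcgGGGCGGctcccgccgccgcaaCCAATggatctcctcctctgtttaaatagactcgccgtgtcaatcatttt
CDK4: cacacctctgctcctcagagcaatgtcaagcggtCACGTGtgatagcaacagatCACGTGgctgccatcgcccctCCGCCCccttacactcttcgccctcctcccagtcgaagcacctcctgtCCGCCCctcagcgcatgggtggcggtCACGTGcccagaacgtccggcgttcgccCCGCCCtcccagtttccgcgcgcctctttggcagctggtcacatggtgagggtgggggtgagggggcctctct
The *CCNE1* window had a GC content of 81.2% and 7 GC boxes, and none of the other motifs searched. The *CDKN1B* window held 2 CCAAT boxes, which began 174 and 50 bases before the start. The *CDK4* window held 3 E-boxes, at 216, 196 and 101 bases before the start, and of 35116 promoter windows searched 6.34% held at least 1. GC boxes occurred in 42.6% of all windows and CCAAT boxes in 32.0%. None of the 3 windows shown matched the E2F letters (TTTCCCGC, TTTCGCGC, TTTGCCGC or TTTGGCGC), which 2.79% of all windows held. The same was true of TNACGTCA (2.67% of all windows), TGANTCA (6.57%), TGATGNAA (3.14%) and GAANNTTC (5.78%). These are the letters searched for the cAMP response element, AP-1, ATF4 and heat shock factors. Of the 5 members with windows, 5 held a GC box, 2 a CCAAT box and 1 an E-box. *CCND3*, not shown, held GAANNTTC in 1 of its windows, 207 bases before the start. *CCND3* and *CDK6* had more than 1 window, so these counts per gene are not directly comparable with the shares per window.

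After CPYPP, *CCND1*, *CCNE1* and *CDKN1B* fell and *MYC* rose in a fit over both lines, and the other 5 members tested did not pass its threshold. The test was edgeR's quasi-likelihood test with the line as a block and Benjamini-Hochberg adjustment over 16801 genes. The 2 lines served as the repeats, which leaves 1 residual degree of freedom. The spread it measures is how far the lines' responses differ, not how far cultures differ. That spread is shared between genes, with a median prior of 13.2 degrees of freedom, so a gene's own difference between the lines weighs little. A call thus does not show that a gene's responses were alike in the lines. *MYC*, for instance, was called with fold changes of 1.09 and 2.18. The test called 4 of the 9 members tested, 1 higher and 3 lower, where 8.62% of all genes tested were called (5.04% higher and 3.58% lower). That share includes genes with far fewer counts than these members, which had at least 283 in every library. The members were also chosen with earlier results of these data known, so the 2 shares are set side by side as a description. In bulk RNA, fewer cells in a given phase of the cycle and less mRNA per cell cannot be told apart. *CCND2* was too low to be tested. DESeq2 with the same block called *CCND1* alone of the members, where it called 868 of 16801 genes. Its DESeq2 fit gave adjusted p = 0.156 for *CCNE1*, 0.218 for *CDKN1B* and 0.245 for *MYC*. Without the block edgeR called no member, with 0 of the 9 at an unadjusted p under 0.05.

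**Figure D1:**
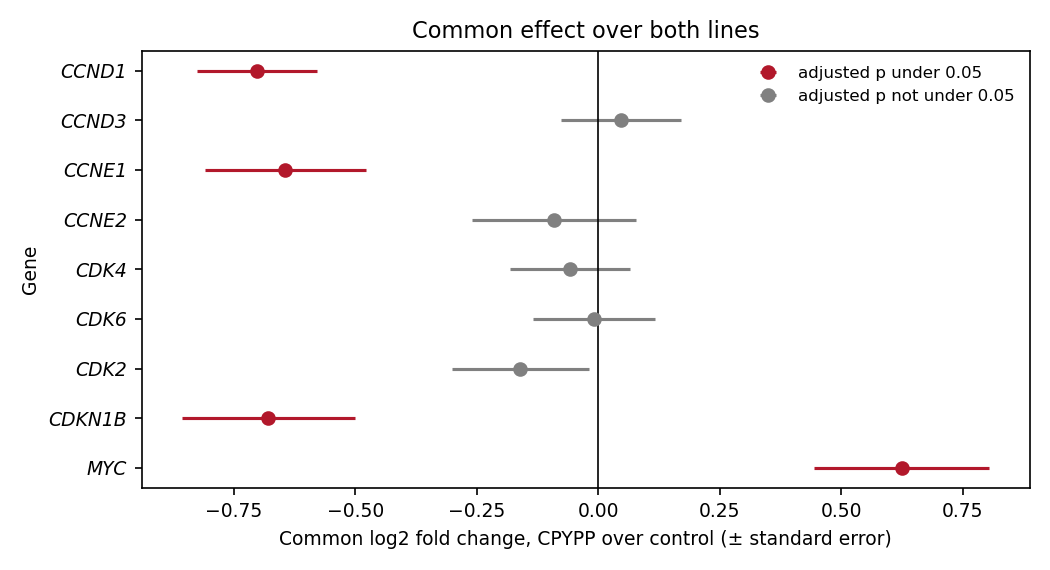
Common log2 fold change of the 9 members tested (x axis, CPYPP over control, with standard error) in edgeR's quasi-likelihood fit over 4 libraries with the line as a block. Red points had an adjusted p under 0.05, namely *CCND1* at −0.70, *CDKN1B* at −0.68, *CCNE1* at −0.64 and *MYC* at 0.62, and the grey points lie between −0.16 and 0.05.

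*CCND1* (ENSG00000110092, chromosome 11, 69641156 to 69654474, in GRCh38 as are all gene positions here) encodes cyclin D1, the D-type cyclin of most epithelial tumors. Its counts were 22162 in control MDA-MB-231 cells and 11085 after CPYPP, and 13774 and 6261 in MDA-MB-435 cells. It was lower after CPYPP in both lines, and its MDA-MB-231 library after CPYPP lay above the MDA-MB-435 control library on the normalized scale. Normalized to library size by edgeR's TMM method, the fold change was 0.667 in MDA-MB-231 cells (95% exact binomial interval for counting error alone, 0.652 to 0.682) and 0.566 in MDA-MB-435 cells (0.549 to 0.583). The common log2 fold change was −0.70 with a standard error of 0.124 (edgeR quasi-likelihood adjusted p = 0.00263). At 209, 139, 122 and 68.8 RPKM (counts per kilobase of exon, scaled to library size) in the order MDA-MB-231 control, CPYPP, MDA-MB-435 control, CPYPP, it had the highest level of all members in every library. It alone made up 56.2% of all member counts in control MDA-MB-231 cells and 47.6% after CPYPP, and 49.4% and 33.1% in MDA-MB-435 cells. On the opposite strand *LTO1* overlaps its annotated span by 1399 bases, and since the strand setting of the counting is not known, reads there cannot be assigned with certainty. *LTO1* had 821 and 696 counts in MDA-MB-231 cells and 819 and 698 in MDA-MB-435 cells, against the far larger counts of *CCND1*.

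*CCND3* (ENSG00000112576, chromosome 6, 41934934 to 42050357) encodes cyclin D3 and had 2364 counts in control and 1997 in CPYPP-treated MDA-MB-231 cells, and 2396 and 1821 in MDA-MB-435 cells. The fold changes of 1.13 (1.06 to 1.20) and 0.946 (0.890 to 1.01) lie on either side of 1, and the common log2 fold change was 0.05 (adjusted p = 0.892 by edgeR quasi-likelihood, standard error 0.124). *CCND2* (ENSG00000118971, chromosome 12, 4269771 to 4305353), the cyclin D2 gene, had 3 and 6 counts in MDA-MB-231 cells and 0 in both MDA-MB-435 libraries. A count of 0 allows up to 0.126 and 0.157 CPM (counts scaled to library size) in those libraries, so no change of *CCND2* was detectable at this depth. The D-type cyclin mRNA of both lines was thus mostly *CCND1*, at 91.9% of the summed level per exon length in control MDA-MB-231 cells and 87.4% in that of MDA-MB-435. After CPYPP this share was 87.0% and 80.6%. Within a library the ratio of *CCND1* to *CCND3* needs no scaling between libraries. It went from 11.3 to 6.72 in MDA-MB-231 cells, a change of 0.592 times (0.556 to 0.631). In MDA-MB-435 cells the ratio of *CCND1* to *CCND3* went from 6.96 to 4.16, a change of 0.598 times (0.559 to 0.640). The intervals of the lines overlapped, but a difference between the lines was not tested.

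The E-type cyclins gave different values from each other. *CCNE1* (ENSG00000105173, chromosome 19, 29811991 to 29824312), for cyclin E1, had 618 and 283 counts in MDA-MB-231 cells and 581 and 313 in MDA-MB-435 cells. Both control libraries lay above both CPYPP libraries, with fold changes of 0.610 (0.528 to 0.704) and 0.671 (0.583 to 0.771). Its common log2 fold change was −0.64 with a standard error of 0.166 (edgeR quasi-likelihood adjusted p = 0.0269). *CCNE2* (ENSG00000175305, chromosome 8, 94879770 to 94896678), for cyclin E2, had 1222 and 690 counts in MDA-MB-231 cells and 757 and 715 in MDA-MB-435 cells. Its value was lower after CPYPP in MDA-MB-231 cells, with a fold change of 0.753 (0.685 to 0.827), and higher in MDA-MB-435 cells, at 1.18 (1.06 to 1.30). The common log2 fold change was −0.09 (adjusted p = 0.834 by edgeR quasi-likelihood, standard error 0.169). *INTS8* and *NDUFAF6* overlap *CCNE2* on the other strand by 1977 and 1146 bases. *INTS8* had between 770 and 1176 counts and *NDUFAF6* between 304 and 521, which is of the order of *CCNE2* itself, and their part in its value was not tested. The ratio of *CCNE1* to *CCNE2* per exon length was 0.904 and 1.37 in the MDA-MB-231 and MDA-MB-435 controls and 0.733 and 0.782 after CPYPP. It was thus lower after CPYPP in both lines, by 0.811 times (0.685 to 0.960) and 0.570 times (0.481 to 0.677).

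**Figure D2:**
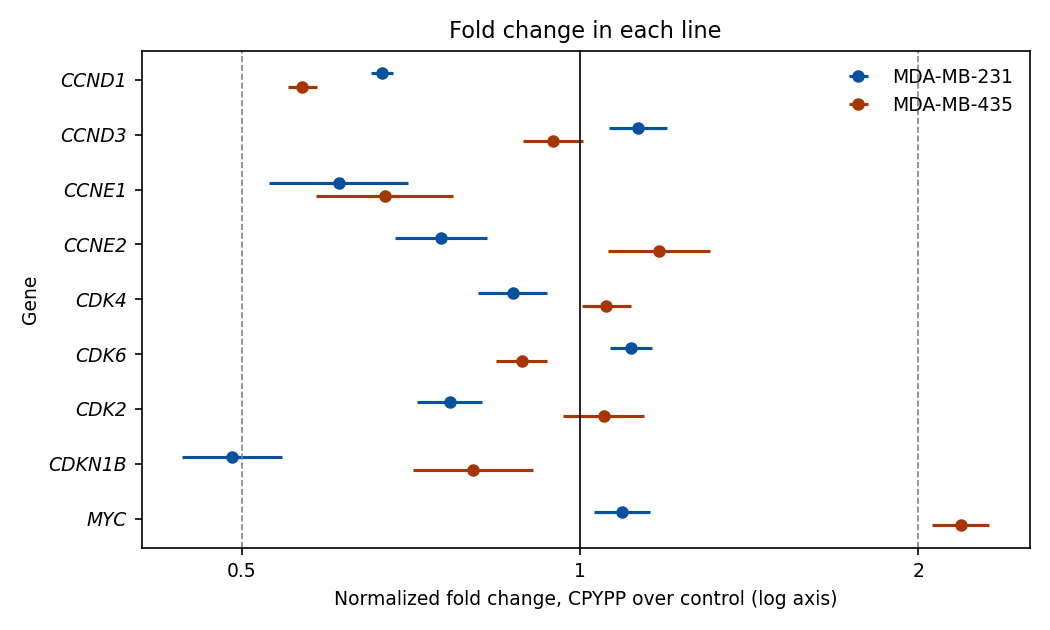
Normalized fold change, CPYPP over control (x axis, log scale), of each member in MDA-MB-231 (blue) and MDA-MB-435 (brown), with 95% exact binomial intervals for counting error, and dashed lines at 0.5 and 2. *CCND1*, *CCNE1* and *CDKN1B* lie below 1 in both lines, *MYC* above 1 in both, and *CCND3*, *CCNE2*, *CDK4*, *CDK6* and *CDK2* on opposite sides of 1, of which *CCNE2*, *CDK4* and *CDK6* have both intervals clear of 1.

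None of the 3 kinase mRNAs passed the threshold of the common fit. *CDK4* (ENSG00000135446, chromosome 12, 57747727 to 57756013), a partner of the D-type cyclins, had 1981 and 1295 counts in MDA-MB-231 cells and 3316 and 2812 in MDA-MB-435 cells. In MDA-MB-231 cells CPYPP over control was 0.871 (0.812 to 0.935). In MDA-MB-435 it was 1.06 with an interval that began just above 1, and scaling by total counts turned it to 0.986. *CDK6* (ENSG00000105810, chromosome 7, 92604921 to 92836573), the other partner, had 4641 and 3869 counts in MDA-MB-231 cells and 3383 and 2412 in MDA-MB-435 cells, with fold changes of 1.11 (1.06 to 1.16) and 0.888 (0.842 to 0.936). *CDK2* (ENSG00000123374, chromosome 12, 55966781 to 55972789), which the E-type cyclins activate, had 2396 and 1377 counts and 1243 and 1048 counts, with fold changes of 0.766 (0.716 to 0.819) and 1.05 (0.966 to 1.14). The common log2 fold changes of the 3 were −0.06, −0.01 and −0.16 in that order, each with a standard error between 0.124 and 0.141 and an edgeR quasi-likelihood adjusted p of 0.857, 0.982 and 0.585. The annotated span of *CDK2* lies wholly within *PMEL* on the opposite strand, but *PMEL* had at most 34 counts. *TSPAN31* and *MARCHF9* overlap *CDK4* on the opposite strand, with between 183 and 333 and between 80 and 454 counts.

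*CDKN1B* (ENSG00000111276, chromosome 12, 12685498 to 12722369), the p27 gene, had 1397 counts in the MDA-MB-231 control and 514 after CPYPP. In MDA-MB-435 it had 671 and 433. It was lower after CPYPP in both lines, and its CPYPP level in MDA-MB-231 cells was close to its control level in MDA-MB-435 cells, at 3.32 against 3.05 RPKM. CPYPP over control was 0.490 (0.442 to 0.543) in MDA-MB-231 cells and 0.803 (0.710 to 0.908) in MDA-MB-435 cells. The common log2 fold change was −0.68 with a standard error of 0.178 (edgeR quasi-likelihood adjusted p = 0.0290). At 6.76 and 3.05 RPKM in the 2 controls it had the lowest level per exon length of the 9 members tested. That rank rests on the deposited exon length of 9255 bases. Without length, at 62.6 and 28.2 CPM, it was above *CCNE1* in both controls, at 27.7 and 24.4. *CDKN1B* was also above *CCNE2* in the MDA-MB-231 control, at 54.8, but below it in that of MDA-MB-435, at 31.8. The ratio of *CDKN1B* to *CDK2*, the kinase its protein inhibits, was 0.245 and 0.227 in the controls and 0.157 and 0.174 after CPYPP. That was a change of 0.640 times (0.567 to 0.722) in MDA-MB-231 cells and 0.765 times (0.661 to 0.886) in MDA-MB-435 cells. The neighbouring gene *GPR19*, on the opposite strand, overlaps it by 10710 bases and had between 7 and 80 counts.

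*MYC* (ENSG00000136997, chromosome 8, 127735434 to 127742951) was the one member called higher. It had 2644 counts in the MDA-MB-231 control and 2162 after CPYPP, and 1773 and 3107 in MDA-MB-435 cells, where it stood out. On the normalized scale of CPM its levels were 118 and 129 in MDA-MB-231 cells and 74.5 and 163 in MDA-MB-435 cells, so the line with the lower control level had the higher level after CPYPP. CPYPP over control was 1.09 (1.03 to 1.15) in MDA-MB-231 cells and 2.18 (2.06 to 2.31) in MDA-MB-435 cells. The common log2 fold change was 0.62 with a standard error of 0.180 (edgeR quasi-likelihood adjusted p = 0.0451), and over the 9 alternatives tried the adjusted p was below 0.05 in 5. Taking TMM factors from the genes that passed the expression filter gave 0.0733. No gene with at least 10 counts overlaps *MYC* in the table. Since *CCND1* fell while *MYC* rose, the ratio of *MYC* to *CCND1* within a library was higher after CPYPP, by 1.63 times (1.54 to 1.74) in MDA-MB-231 cells, from 0.124 to 0.203, and by 3.86 times (3.61 to 4.12) in MDA-MB-435 cells, from 0.134 to 0.515. The ratio of *MYC* to *CDKN1B* was higher by 2.22 times (1.98 to 2.50) and 2.72 times (2.37 to 3.11).

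**Figure D3:**
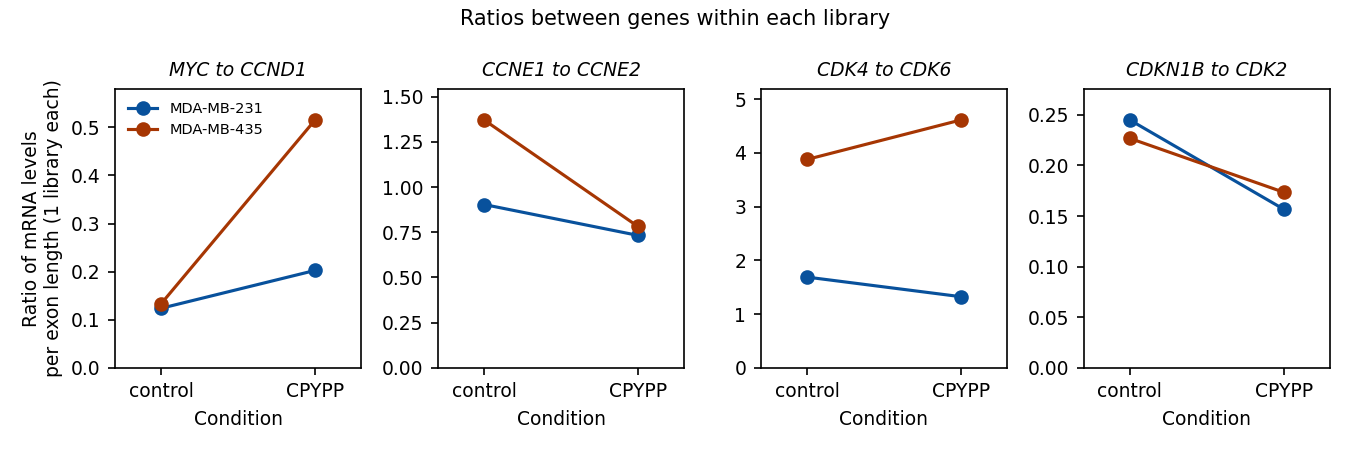
Ratio of the levels of 2 genes per exon length within each library (y axis), for control and CPYPP in MDA-MB-231 (blue) and MDA-MB-435 (brown), with 1 library per point and no error bar. *MYC* to *CCND1* went from 0.124 to 0.203 and from 0.134 to 0.515, *CCNE1* to *CCNE2* and *CDKN1B* to *CDK2* were lower after CPYPP in both lines, and *CDK4* to *CDK6* went from 1.69 to 1.32 and from 3.88 to 4.61.

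Few members moved as far as 2-fold within a line. With a fold change over 2 and an interval that excludes 1, only *CDKN1B* was past the limit in MDA-MB-231 cells, 1 of the 9 members with at least 10 counts in either library, where 8.05% of 16441 genes were past it and 3.83% were lower. In MDA-MB-435 *MYC* alone was, where 10.9% of 16527 genes were and 3% were higher. *CDKN1B* lay just beyond the limit, with an interval that reaches 0.543, and with upper-quartile scaling its fold change was 0.520. At a limit of 1.5-fold *CCNE1* joined it in MDA-MB-231 cells (16.6% of all genes tested) and *CCND1* joined *MYC* in MDA-MB-435 cells (21.2%). In MDA-MB-231 *CCND1* itself was just short of that limit. The median log2 fold change of the 9 members was −0.38 in MDA-MB-231 cells and −0.08 in MDA-MB-435 cells, against −0.04 and −0.07 over all genes tested. Intervals excluded 1 for all 9 members in MDA-MB-231 cells and for 7 in MDA-MB-435 cells, where they did so for 50.6% and 55% of all genes, and such intervals cover counting error alone.

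The response of *MYC* differed most between the lines. Its fold change in MDA-MB-435 cells was 2.0 times that in MDA-MB-231 cells (95% interval for counting error 1.85 to 2.17). It was the 1 member whose responses differed by over 2-fold, where 6.49% of 14262 genes did, and it lay on the limit, since 4 of the 6 other scalings put it below. *CDKN1B* followed at 1.64 times (1.40 to 1.92), *CCNE2* at 1.56 times (1.36 to 1.79) and *CDK2* at 1.37 times (1.23 to 1.52). At a limit of 1.5-fold, *CCNE2* and *CDKN1B* joined *MYC*, where 13% of all genes were past it. For *CCNE1* the ratio was 1.10 (0.903 to 1.34). *CCNE2*, *CDK4* and *CDK6*, 3 of the 9, lay on opposite sides of 1 in the lines with both intervals excluding 1. Of all genes tested in both lines 5.97% did so, a share that includes genes with far fewer counts and thus wider intervals. Scaled by total counts, the fold change of *CDK4* in MDA-MB-435 cells was 0.986. With 1 library per condition these differences between lines were not tested.

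The lines already differed before treatment. *CDK2* and *CDKN1B* were past 2-fold between the control libraries, both lower in MDA-MB-435 cells, at 0.487 (0.454 to 0.521) and 0.450 (0.410 to 0.494) of the MDA-MB-231 level. That is 2 of the 9 members tested, where 43.1% of 18269 genes tested were past the limit and 20.8% were lower. At a limit of 1.5-fold 6 members were past it, where 58.5% of all genes were. *CDK4* was higher in MDA-MB-435 cells at 1.57 times (1.48 to 1.66), while *CCND1* at 0.583 (0.571 to 0.595), *CCNE2* at 0.581 (0.530 to 0.637), *MYC* at 0.629 (0.592 to 0.668) and *CDK6* at 0.684 (0.654 to 0.715) were lower. *CCNE1* and *CCND3* were the closest, at 0.882 (0.786 to 0.989) and 0.951 (0.898 to 1.01).

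By level per exon length, the MDA-MB-231 control ordered the members as *CCND1* (209 RPKM), *CDK4* (28.7), *CDK2* (27.6), *MYC* (25.8), *CCND3* (18.4), *CDK6* (17.0), *CCNE2* (12.5), *CCNE1* (11.3) and *CDKN1B* (6.76). Counting intervals of neighbours overlapped for *CDK4* and *CDK2*, for *CDK2* and *MYC*, and for *CCNE2* and *CCNE1*. In the MDA-MB-435 control the order was *CCND1* (122 RPKM), *CDK4* (45.0), *CCND3* (17.5), *MYC* (16.3), *CDK2* (13.4), *CDK6* (11.6), *CCNE1* (9.92), *CCNE2* (7.24) and *CDKN1B* (3.05), and the intervals of *CCND3* and *MYC* overlapped. After CPYPP *MYC* stood second in MDA-MB-231 cells at 28.2 RPKM and behind *CCND1* and *CDK4* in MDA-MB-435 cells at 35.5. Among the 3 kinases, *CDK4* made up 39.1% of the summed level in the MDA-MB-231 control and 64.3% in that of MDA-MB-435, with 38.4% and 66.1% after CPYPP. The exon length was taken from the table, and the use of different transcripts of a gene was not measured.

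**Figure D4:**
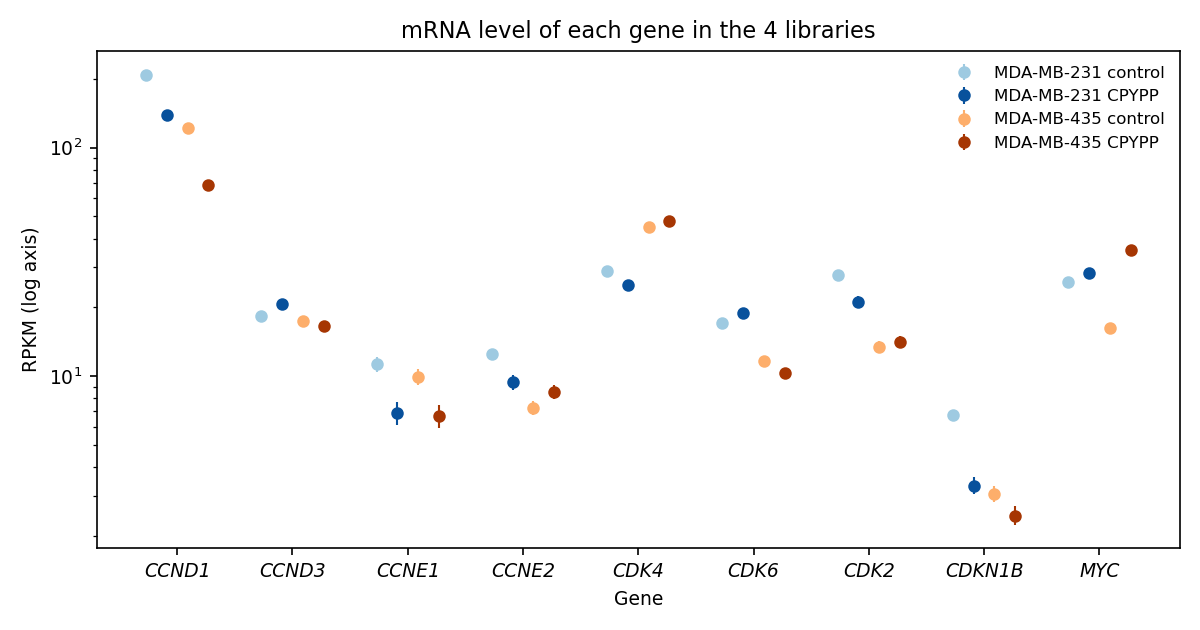
Level of the 9 members tested (y axis, RPKM on a log scale) in each of the 4 libraries, with 95% exact Poisson intervals for counting error that are mostly smaller than the points. Per exon length, *CCND1* is the highest in every library and *CDKN1B* the lowest, and *MYC* in the MDA-MB-435 CPYPP library, at 35.5, is above its other 3 values.

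Other genes of the pathway were taken as lists and counted in the same common fit, without the 10 members and only where a gene had at least 10 counts in a library of each line. Over all genes tested in that fit, 8.62% were called, 5.04% higher and 3.58% lower, and the median common log2 fold change was −0.04. That share and median were taken without the limit of 10 counts in each line. Of the 4 other CDK inhibitor genes, 1 rose and 2 fell. *CDKN1A*, the p21 gene, rose 2.46-fold in MDA-MB-231 cells and 2.43-fold in MDA-MB-435 cells, from 1599 to 2948 counts and from 898 to 1753 (common log2 fold change 1.29 with adjusted p = 1.55e-05 by edgeR quasi-likelihood, standard error 0.123). *CDKN1B* was thus opposite in direction to its close relative *CDKN1A*. *CDKN2C* and *CDKN2D*, which encode inhibitors of CDK4 and CDK6, fell with common log2 fold changes of −0.78 (standard error 0.148) and −0.66 (standard error 0.191). *CDKN2A*, named here after its values were seen, had 0 counts in both MDA-MB-231 libraries and 1894 and 1354 in those of MDA-MB-435, and *CDKN2B*, named likewise, had 0 and 1 against 360 and 323, so neither was counted here.

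The RB and E2F list held 13 genes, of which 2 rose and 3 fell, or 38.5%, with a median of −0.22. *E2F6*, a repressor of the family, rose with a common log2 fold change of 1.08 (standard error 0.162), which was 1.73-fold in MDA-MB-231 cells and 2.55-fold in MDA-MB-435 cells. *E2F3*, an activator, rose by 0.54 (standard error 0.128), while *E2F5*, *E2F8* and *E2F4*, which act mainly as repressors, had −0.93, −0.64 and −0.56 on the same scale. The retinoblastoma gene *RB1* had fold changes of 1.07 and 1.09 and *E2F1* 0.903 and 1.05, and both were named outside the rule, after their values were seen. Of 20 S-phase genes that E2F factors drive, 0 rose and 2 fell in the common fit, or 10%, close to the share over all genes. These were *CCNA2*, for cyclin A2, at −0.69 (standard error 0.124) and *UHRF1*, which maintains DNA methylation, at −0.51 (standard error 0.127), and the list's median was −0.05.

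Among 12 partners and antagonists of MYC, 1 rose and 2 fell, and the median was 0.08. *MXD1*, which pairs with MAX and opposes MYC, rose 3.49-fold in MDA-MB-231 cells (368 counts in control and 963 after CPYPP) and 5.32-fold in MDA-MB-435 cells (289 and 1235). Its common log2 fold change was 2.10 (adjusted p = 4.03e-06 by edgeR quasi-likelihood, standard error 0.175). The antagonists *MXD3* and *MNT* fell by 0.99 and 0.73 on the log2 scale (standard errors 0.243 and 0.160). Of 20 growth genes linked to MYC, 1 rose and 1 fell, or 10%, again close to the share over all genes, and their median was −0.05. The riser was *HSPD1*, a mitochondrial chaperonin, at 0.85 (standard error 0.122), and the other was *RRS1*, for ribosome assembly, at −0.87 (standard error 0.179).

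The turnover list, with the ubiquitin ligase parts that mark cyclins, p27 and MYC for destruction, held 16 genes, of which 1 rose and 1 fell, or 12.5%, with a median of 0.06. *SKP2*, whose product marks p27, fell to 0.511 of control in MDA-MB-231 cells (1508 counts in control and 578 after CPYPP) and to 0.496 in MDA-MB-435 cells (2077 and 827). Its common log2 fold change was −0.99 (adjusted p = 0.000438 by edgeR quasi-likelihood, standard error 0.137). *CUL1*, the scaffold of the same ligase, rose by 0.52 (standard error 0.118). Of 9 genes for CDK activation 1 rose and 1 fell, namely the phosphatase genes *CDC25A* at 0.80 (standard error 0.136) and *CDC25B* at −0.57 (standard error 0.123), and the median was −0.07. The other cyclins and CDKs numbered 25, of which 3 rose and 3 fell, or 24%, with a median of 0.04. *CCNF* fell most, at −1.25 (standard error 0.170), followed by the mitotic cyclins *CCNB1* at −0.48 (standard error 0.126) and *CCNB2* at −0.44 (standard error 0.123). *CDK17*, *CCNK* and *CCNL1* rose by 0.66, 0.51 and 0.43, with standard errors between 0.126 and 0.149.

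**Figure D5:**
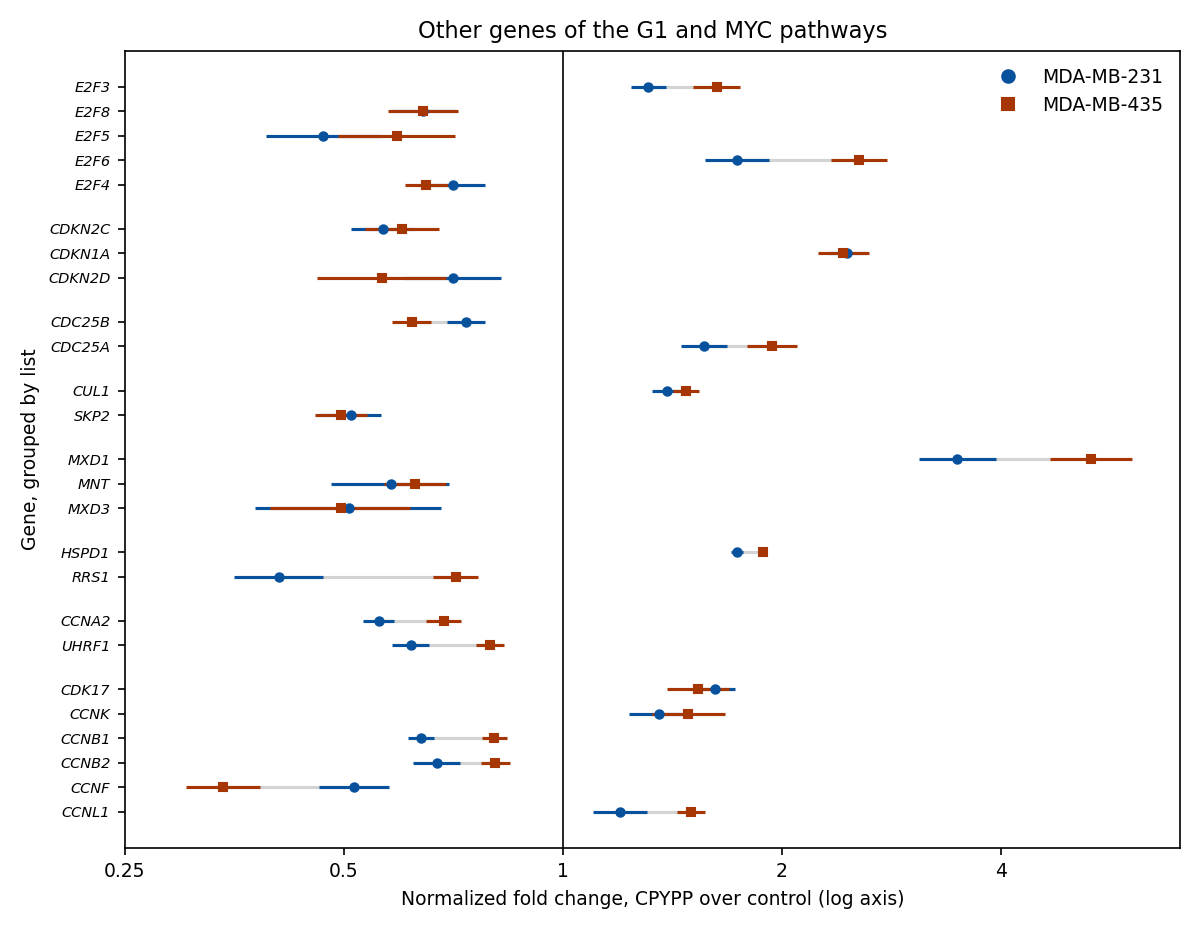
Normalized fold change, CPYPP over control (x axis, log scale), of the named genes of 8 pathway lists in MDA-MB-231 (blue circles) and MDA-MB-435 (brown squares), with 95% exact binomial intervals for counting error and grey lines joining the lines' values. *MXD1* at 3.49 and 5.32 lies farthest to the right and *CCNF* in MDA-MB-435 at 0.341 farthest to the left. The genes were chosen by the fit over both lines, which favours genes that moved alike in them.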

How the data were processed

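Poly(A) RNA libraries of 4 samples were compared, 1 per condition. The authors deposited unnormalized read counts for each gene, made by a sequencing service from trimmed and aligned reads. The submitters' processing notes name cutadapt 1.9.1, HISAT2 2.2.1, HTSeq 0.6.1, DESeq2 and GRCh37.p13. Positions in the table are those of GRCh38, since 58241 of 58254 identifiers shared with GENCODE v29 overlap its position. The strand setting is not given in the sources used here. The deposited exon length per gene, another measure in the table, served for RPKM.

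The tools were edgeR 4.0.16 and DESeq2 1.42.0 in R 4.3.3, and scipy 1.17.1 in Python 3.11.15. Library sizes were scaled by TMM over all genes and 4 libraries. Fold changes within a line covered genes with at least 10 counts in either library and carry exact binomial (Clopper-Pearson) 95% intervals, which cover counting error only. Ratios between genes, and ratios of the lines' fold changes, carry 95% intervals on the log scale from the sum of the inverse counts. These too cover counting error only. Counts under 3 were set to 3. The common effect was fitted with filterByExpr and the line as a block. The members and lists were chosen with earlier results of these data known. From each list, up to 6 genes past a threshold were named, by size of common change, or the 2 largest where fewer than 2 passed. Procedures were tested on simulated data. Alternatives covered scaling, filters, the fold limit, DESeq2 and the block. TMM from filtered genes and TMM within each line were added after seeing the data.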

Additional observations from a re-analysis of the deposited data

Results flagged for a closer look

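The fold changes of 3 members lay on opposite sides of 1 in the lines, with both counting intervals excluding 1, as 5.97% of 14262 genes did. That share includes genes with far fewer counts and thus wider intervals. The fold change in MDA-MB-435 was 1.56 times that in MDA-MB-231 for *CCNE2*, 1.21 times for *CDK4* and 0.799 times for *CDK6*. With 1 library per condition the difference between the lines was not tested. For *CDK4* the value in MDA-MB-435 lay on the other side of 1 with scaling by total counts.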

How the results depend on the processing

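The fit over both lines pairs control and CPYPP within a line. The labels give no replicate numbers that could pair the libraries further. For the members called in the fit over both lines, the main analysis gave 4. Requiring at least 50 counts in 2 libraries left 2 (*CCND1* and *CCNE1*), where 1138 of 12867 genes were called. DESeq2 with the line as a block left 1 (*CCND1*), where 868 of 16801 genes were called. No line block left 0, with 0 of the 9 at an unadjusted p under 0.05. Without the block 0 of all 16801 genes were called by edgeR, with 161 at an unadjusted p under 0.05, since the difference between the lines then counts as spread. Of the 9 alternatives, *CCND1* kept an adjusted p below 0.05 in 8, *CCNE1* in 7, *CDKN1B* in 6 and *MYC* in 5. The count of all genes called was 1448 in the main analysis and between 868 and 1930 in the alternatives with the block. For the 2-fold limit in MDA-MB-231, upper-quartile scaling gave 0 members and a limit of 1.5-fold gave 2, against 1, and in MDA-MB-435 the limit of 1.5-fold gave 2, against 1. Between the controls the number was 2, and it was 1 with total counts and with TMM from protein-coding genes alone and 6 with the limit of 1.5-fold. For differences in response the number was 1, and it was 0 with total counts, upper quartile, TMM from protein-coding genes alone and TMM from filtered genes, and 3 with the limit of 1.5-fold. No member that was called changed direction. Scaling crossed 1 for *CCND3*, *CDK4* and *CDK2* in MDA-MB-435. Leaving out a library leaves a line without a comparison, so each line's own fold change takes the place of that analysis.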

Other observations

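The genes with the pattern over the 4 libraries nearest to that of *MYC*, by Euclidean distance of centred log2 CPM among 9670 genes with a symbol and a mean of at least 10 CPM, were *NFKBIA* (distance 0.0810), *TBK1* (0.0993) and *BCL2L11* (0.134). *NFKBIA* encodes an inhibitor of NF-kappaB, *TBK1* a kinase of innate immune signalling and *BCL2L11* the cell death protein BIM. *NFKBIA* had 1015 and 836 counts in MDA-MB-231 cells and 643 and 1223 in MDA-MB-435 cells. Nearest to *CCND1* were *CDKN2D* (distance 0.0729), *GINS1* (0.0868), which encodes a subunit of the replicative helicase, and *SNHG4* (0.0897), a host gene of small nucleolar RNA. *GINS1* had 1856 and 931 counts in MDA-MB-231 cells and 1102 and 542 in MDA-MB-435 cells. With 4 points per gene this likeness is a description.

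Between the CPYPP libraries, *CCND1* in MDA-MB-435 cells was at 0.495 (0.480 to 0.510) of its MDA-MB-231 level, *CDK4* at 1.9 times (1.78 to 2.03) and *MYC* at 1.26 times (1.19 to 1.33). *CCNE1* and *CCNE2* were at 0.969 (0.822 to 1.14) and 0.908 (0.817 to 1.01), with intervals that include 1.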
